A study of Mus musculus with 2 samples.

Results

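The enzymes described here are the UDP-glucuronosyltransferases and the glutathione transferases of mouse liver. Members were all probe sets whose annotation named exactly 1 gene with a current symbol beginning Ugt1, Ugt2, Ugt3, Ugt8, Mgst, or Gst followed by a class letter. The rule found 47 of 45037 probe sets, for 35 of the 18193 genes that a probe set named alone. Of these, 11 were Ugt genes, 19 were cytosolic Gst genes of the alpha, mu, pi, theta, omega and zeta classes, and 3 were Mgst genes. The other 2 were Gstk1, whose kappa class enzyme lies in mitochondria and peroxisomes, and Gstcd, which shares only a domain with the family.

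Total liver RNA was hybridised to Affymetrix arrays from 2 pools of C57BL/6 male wild-type mice that were 8 weeks old. The renal ischaemia-reperfusion pool held liver of 3 mice whose kidneys on both sides had 30 minutes of warm ischaemia and were then reperfused. The sham pool held liver of 3 mice after a sham operation. Surgery preceded liver collection by 24 hours in both pools, and each mouse gave 100 mg of liver. Each pool was read on 1 array, so the spread between mice is unknown and no test or p-value could be given.

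Both enzyme families make fat-soluble compounds easier to excrete. Ugt enzymes sit in the endoplasmic reticulum and, in the families Ugt1 and Ugt2, attach glucuronic acid from UDP-glucuronic acid to bilirubin, steroids, bile acids and drugs. Gst enzymes join the thiol of glutathione to reactive electrophiles, and the Mgst proteins do so from within membranes, as part of the MAPEG family that also makes leukotrienes and prostaglandin E. Hepatocytes are rich in all of these, and NRF2, the nuclear receptors CAR and PXR, and HNF1 and HNF4 are known to drive many of their genes.

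All 9 Ugt genes whose signals reached the median of each array were lower in the renal ischaemia-reperfusion pool. Most cytosolic Gst genes were lower too, and the Mgst genes went in mixed directions. Gsta3 had the largest difference of the measured members (5.49-fold lower), followed by Ugt2b35 (4.55-fold lower). Values were taken as log2 of the array signal plus 16, subtracting the sham value from that of the renal ischaemia-reperfusion pool, and folds are on that scale. A gene counted as measured when the brighter of its 2 signals reached the median of its array (257.0 sham, 254.1 renal ischaemia-reperfusion), which 31 of the 35 member genes and 42 of the 47 probe sets did. Of the 31 genes, 13 were lower by 2-fold or more. By its measured signals 1 gene, Mgst2, was higher by that much, but it passed the filter through the brighter pool alone and has only a bound below 2-fold. Over all 13117 genes past the same filter the shares were 9.59% lower and 8.71% higher. Among the 29 members that reached the median of each array, 13 were lower by 2-fold and none higher, against 6.17% lower over all genes held to the same filter. A log2 difference under 0 was seen for 28 of the 31 members and for 50.7% of all genes. Of the 29 members on both arrays it was seen for 27, against 50.8% of all genes held to that filter. The median log2 difference was -0.85 over the members and -0.01 over all genes.

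Lists of cell type markers were read in both pools, and they do not show which cells the member RNA came from. Of 9 hepatocyte markers past the filter, 4 were lower and 5 higher, 1 passed 2-fold downward (Cps1) and none upward. The median log2 difference of 0.13 is that of Ass1, whose signals (271.5 and 299.4) were close to the array medians. Summed signals were 224324 (sham) and 281102 (renal ischaemia-reperfusion). Much of both sums came from Alb (43573 and 72494), Ttr (49053 and 64982) and Apoa1 (49359 and 69348). In the renal ischaemia-reperfusion pool all of these exceeded the brightest signal of the sham array (55427, against 85966 on the other array). Whether the sums depend on the scaling was not tested. Of 13 pancreatic acinar markers past the filter, 8 reached the median on both arrays, and all 8 were higher, 5 of them at least 2-fold, with summed signals of 6080 and 13533. The other 5 passed through the renal ischaemia-reperfusion array alone, so their direction was fixed by the filter, and 3 of these had a bound of at least 2-fold. Of the cholangiocyte markers only Sox9 reached the median on both arrays (318.8 and 731.2). Krt19 and Epcam passed through the renal ischaemia-reperfusion array alone, at least 1.93-fold and at least 4.38-fold higher, and 5 more were under the filter. Of 8 Kupffer cell and macrophage markers at or above both medians, 6 were lower, with summed signals of 12162 and 8714. C1qa and Timd4 passed through the sham array alone, at least 3.61-fold and at least 1.03-fold lower. In the neutrophil list no gene measured on both arrays passed 2-fold (5 genes). S100a8 and S100a9 were dim in the sham pool and at least 5.21-fold and at least 2.95-fold higher. Cxcr2 was dim in the renal ischaemia-reperfusion pool and at least 1.14-fold lower. Endothelial Lyve1 (3.01) and Clec4g (-1.05) and stellate Dcn (1.02) passed 2-fold among 7 and 6 genes on both arrays, and no lymphocyte or red cell marker did. Endothelial Eng (its 2 probe sets differing in sign) passed through the sham array alone, at least 1.47-fold lower. So did stellate Lrat and Col1a1, at least 1.34-fold and at least 1.27-fold lower. Lymphocyte Cd3e passed through the renal ischaemia-reperfusion array alone, at least 1.02-fold higher. None of these markers was listed at 0. The part of such RNA in the member differences was not tested, and in pooled tissue fewer cells of a type and less RNA per cell cannot be told apart.

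**Figure D1:**
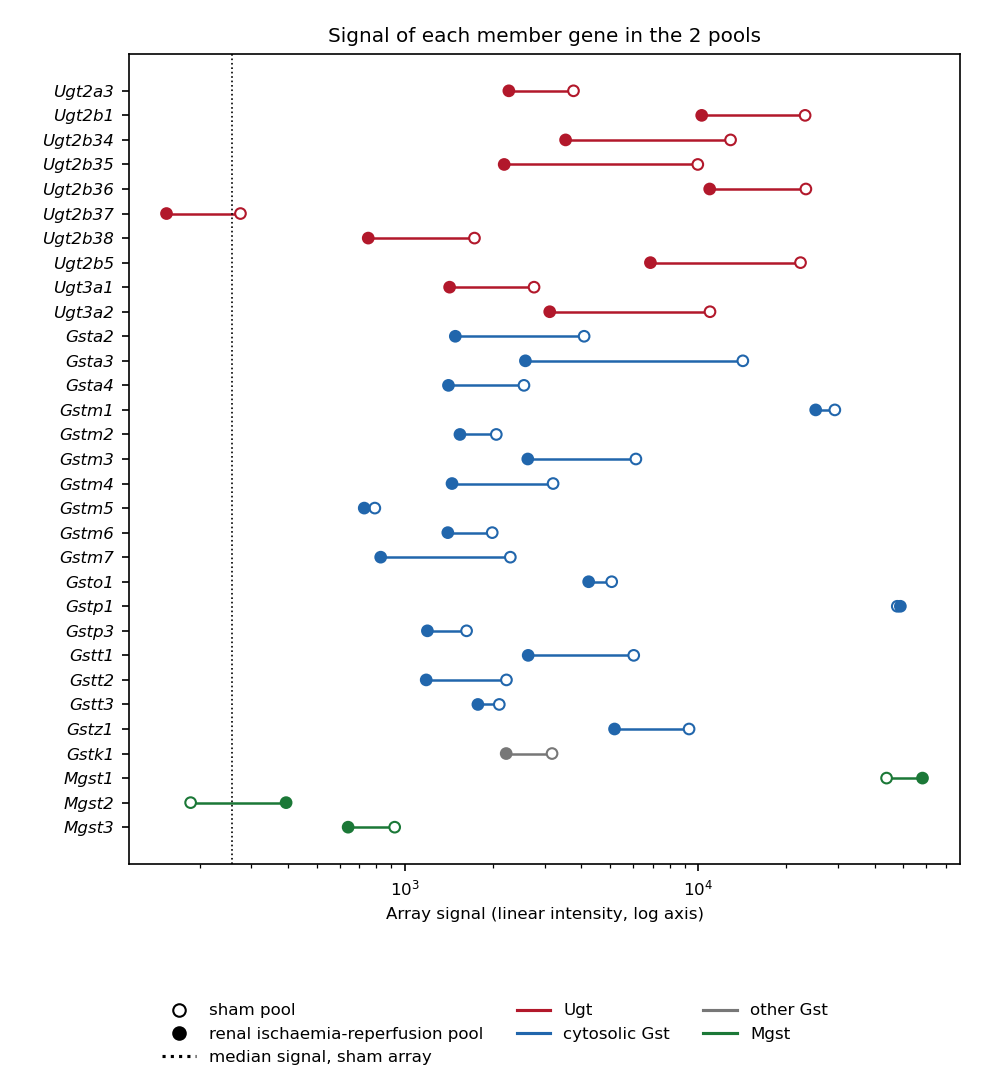
Array signal of the 31 measured member genes for sham (open points) and the renal ischaemia-reperfusion pool (filled points), on a log axis, with the median signal of the sham array as a dotted line. The filled point lies left of the open point for 28 genes. It lies right of it for Gstp1, Mgst1 and Mgst2, of which Gstp1 and Mgst1 turned under 0 by quantile normalization.

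Among the Ugt genes, 7 of 10 measured were at least 2-fold lower and none was higher, with a median log2 difference of -1.18. By contrast, 35.3% of the measured cytosolic Gst genes (6 of 17) passed 2-fold, against 70% of the Ugt genes. At the level of probe sets, 9 of 12 for Ugt and 9 of 24 for cytosolic Gst were at least 2-fold lower, against 10.8% of all probe sets past the filter, and none of them was at least 2-fold higher, against 10.4%. The medians of both classes stayed under 0 in each of the 13 other settings tried.

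The Ugt2b enzymes conjugate steroids, bile acids and many drugs, and their genes lie side by side on chromosome 5. The signal of Ugt2b35 was 9984 after sham surgery and 2183 after renal ischaemia-reperfusion, a log2 difference of -2.19. Ugt2b34 went from 12915 to 3535 (-1.86) by a probe set with the suffix _s_at, which can cross-hybridise, and from 5671 to 1698 (-1.73) by its other probe set. Ugt2b5 had signals of 22370 and 6883, 3.25-fold lower. These 3 genes had the largest differences of the cluster, and the 2 readings of Ugt2b34 were close to each other.

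Ugt2b38 (1728 and 750.4), Ugt2b1 (23192 and 10295) and Ugt2b36 (23332 and 10962) were 2.28-fold, 2.25-fold and 2.13-fold lower. Ugt2b37 was dim, with 275.1 after sham surgery and 153.9 after renal ischaemia-reperfusion, the latter under the array median. It passed through the sham array alone, so its direction was fixed by the filter. Its difference is a bound, at least 1.08-fold lower. Ugt2a3, of the related Ugt2a branch, went from 3762 to 2264 and was 1.66-fold lower. The order of the cluster did not follow the size of the difference: Ugt2b35, the lowest, lies between Ugt2b1 and Ugt2b36, which were both close to 2-fold.

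The human UGT3A enzymes use sugars other than glucuronic acid, and the mouse genes Ugt3a1 and Ugt3a2 lie next to each other on chromosome 15. Ugt3a2 went from 10988 after sham surgery to 3121, and so was 3.51-fold lower. Ugt3a1 had 2760 and 1422, 1.93-fold lower, and a second probe set, of the _s_at kind, gave -1.35 on the log2 scale. Both probe sets of Ugt8a, the galactosyltransferase that makes a myelin lipid, were under the array median in both pools, with signals from 60.1 to 108.8, so no fold is given.

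The Ugt1 genes share their last exons, and no probe set named only 1 of them. There were 3 probe sets annotated with the same 8 genes of this locus, and they are not members by the rule. Their log2 differences were -0.53, -0.56 and -0.45, with sham signals from 18144 to 33774. No single gene can be named from them. The 9 Ugt members that reached the median of each array ranged from -2.19 to -0.73, and whether the Ugt1 probe sets differ from them could not be tested. Another probe set, for a pair of Ugt2a genes, read 358.9 and 86.4 and was thus at least 1.39-fold lower.

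The promoter windows of the Ugt2b genes are shown because these neighbours were lower together. RefSeq windows (GRCm38.p6, 250 bases before to 50 after the start) were found for 32 of the 35 member genes. The windows of Ugt2b5, Ugt2b36, Ugt2b37 and Ugt2b38 share an unbroken run of 22 bases just upstream of the start, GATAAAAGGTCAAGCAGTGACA, and only these 4 of 32851 windows hold it on either strand. Below are the last 80 bases before each start, 5′ to 3′ on the gene's strand, with the nuclear receptor half-site AGGTCA in capitals.
Ugt2b5: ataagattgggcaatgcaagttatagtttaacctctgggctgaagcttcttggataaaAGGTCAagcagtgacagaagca
Ugt2b36: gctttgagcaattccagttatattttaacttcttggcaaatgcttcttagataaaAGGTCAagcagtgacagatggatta
Ugt2b37: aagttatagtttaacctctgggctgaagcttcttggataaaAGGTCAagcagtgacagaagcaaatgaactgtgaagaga
Ugt2b38: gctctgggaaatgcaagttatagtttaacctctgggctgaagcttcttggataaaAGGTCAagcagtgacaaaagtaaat
They lie on the minus strand at chr5:87140341-87140420, chr5:87092556-87092635, chr5:87254789-87254868 and chr5:87424204-87424283, in that order.

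Over the whole 300-base windows, Ugt2b37 and Ugt2b38 were 86.9% identical and Ugt2b5 and Ugt2b38 84.2%, whereas Ugt2b36 was 60.7% to 63.9% identical to these 3 genes. The windows of Ugt2b1 and Ugt2b34 had at most 50.3% identity with any other Ugt2b window. The 4 genes with the shared run had log2 differences of -1.70, -1.09, -0.78 (a dim gene) and -1.19, and the 3 without it -1.17, -1.86 and -2.19, so these ranges overlapped. AGGTCA on either strand occurred in 16.3% of all windows, in 18.1% of all genes with a window and in 7 of the 32 member genes with a window. TTAATNATT, a part of the HNF1 consensus, occurred in 1.47% of all windows and in 1.72% of all genes with a window. Among the 32 member genes it was in 4, Ugt2b5, Ugt2b35, Ugt2b37 and Ugt2b38. A match is a description of the letters and not a binding site.

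**Figure D2:**
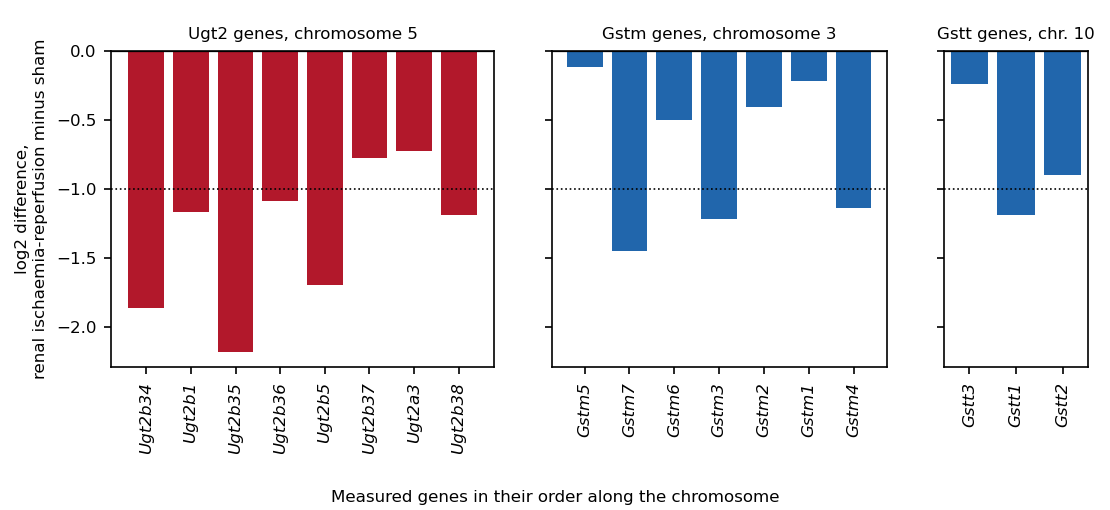
Bars give the log2 difference (renal ischaemia-reperfusion minus sham) of the measured genes of 3 clusters, in their order along the chromosome, with the 2-fold line dotted. In the Ugt2 cluster the bars run from -2.19 to -0.73, and Ugt2b37 (-0.78) is dim in 1 pool. In the Gstm cluster Gstm7, Gstm3 and Gstm4 pass -1, and the other 4 genes lie between -0.50 and -0.12.

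Among the cytosolic Gst genes, the alpha class had the lowest median (-1.45 over 3 genes). Gsta3, known in mouse liver for detoxifying the aflatoxin epoxide, read 14222 after sham surgery and 2579 after renal ischaemia-reperfusion. Its other probe set went from 5262 to 750.9, a log2 difference of -2.78 beside -2.46. Gsta3 had rank 163 from the lowest of the 13117 genes, and it and Ugt2b35 were the 2 members at least 4-fold lower, as were 2.46% of all genes. Gsta2 went from 4089 to 1487 (2.73-fold lower). Gsta4, which conjugates the lipid peroxidation product 4-hydroxynonenal, went from 2549 to 1409 (1.80-fold lower). A probe set that named 3 alpha class genes, and is no member, stood at 3879 and 2923.

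The mu class, 7 neighbouring genes on chromosome 3, did not differ alike. Gstm7 (2291 and 827.5), Gstm3 (6140 and 2627, by an _s_at probe set) and Gstm4 (3205 and 1449) were 2.73-fold, 2.33-fold and 2.20-fold lower. Gstm6 (1987 and 1402), Gstm2 (2052 and 1542) and Gstm5 (790.3 and 727.2) had log2 differences of -0.50, -0.41 and -0.12. Gstm5 lies beside Gstm7, and Gstm2 beside Gstm3, so that genes past 2-fold and genes far from it were direct neighbours.

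The readings of some mu genes depended on the probe set. Gstm1, a main mu class enzyme of mouse liver, went from 29290 to 25200 by its brightest probe set (-0.22). That probe set has the suffix _x_at, which can cross-hybridise, so the gene's value rests on a less specific reading. Its 3 others gave -0.48 (26001 and 18701, without such a suffix), -0.72 and -1.06 (also _x_at). For Gstm7 the second probe set went from 1294 to 1115, a difference of -0.21, so its 2-fold call rests on 1 probe set. The second probe set of Gstm3 gave -1.55. Mu class transcripts are alike in sequence, and a probe set of 1 gene may also bind another's.

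In the theta class, whose enzymes act on small halogenated compounds, Gstt1 went from 6037 to 2635 (2.28-fold lower) and Gstt2 from 2222 to 1183 (1.87-fold lower). Gstt3, next to Gstt1 on chromosome 10, differed little (2100 and 1776, log2 difference -0.24). Gstz1, which also carries out a step of tyrosine breakdown as maleylacetoacetate isomerase, went from 9323 to 5193 (1.79-fold lower). Gsto1, an omega class enzyme that also reduces dehydroascorbate, had 5078 and 4237, with -0.26 by this and -0.50 by its other probe set. Gstk1 of mitochondria and peroxisomes had 3179 and 2217 (1.43-fold lower).

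The 2 pi class genes measured were both short of 2-fold. Gstp1, the main pi class enzyme of male mouse liver, had signals of 47829 and 49000, a log2 difference of 0.03. Its sign depended on the scaling, with -0.47 by quantile normalization, -0.18 with a loess trend removed and -0.25 with hybridisation controls as the reference. Gstp2 is a near-identical copy that no member probe set names, so the Gstp1 reading may hold both. Gstp3 had 1625 and 1194, a log2 difference of -0.44.

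Among the genes under the filter in both pools, Gsto2 had signals of 146.8 and 21.5, Gstt4 68.1 and 74.5, and Gstcd 94.3 and 243.0. With Ugt8a these were the 4 member genes left out of every count above.

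The Mgst genes had no common direction. Mgst1, an abundant enzyme of the endoplasmic reticulum and outer mitochondrial membrane, went from 43971 to 58305 (1.33-fold higher), and its dimmer probe set from 359.8 to 432.4. By quantile normalization its difference was -0.06 in place of 0.41. Mgst2, which can make leukotriene C4, read 186.0, under the array median, after sham surgery and 393.7 after renal ischaemia-reperfusion, at least 1.5-fold higher. It is the 1 member at least 2-fold higher by its measured signals (2.03-fold). Mgst3 went from 923.6 to 640.8 (-0.52), whereas its other probe set went from 383.0 to 443.0 (0.20). The median of the 3 genes was 0.41, and it turned to -0.06 by quantile normalization and to -0.05 when Mgst2 was left out by a stricter filter.

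**Figure D3:**
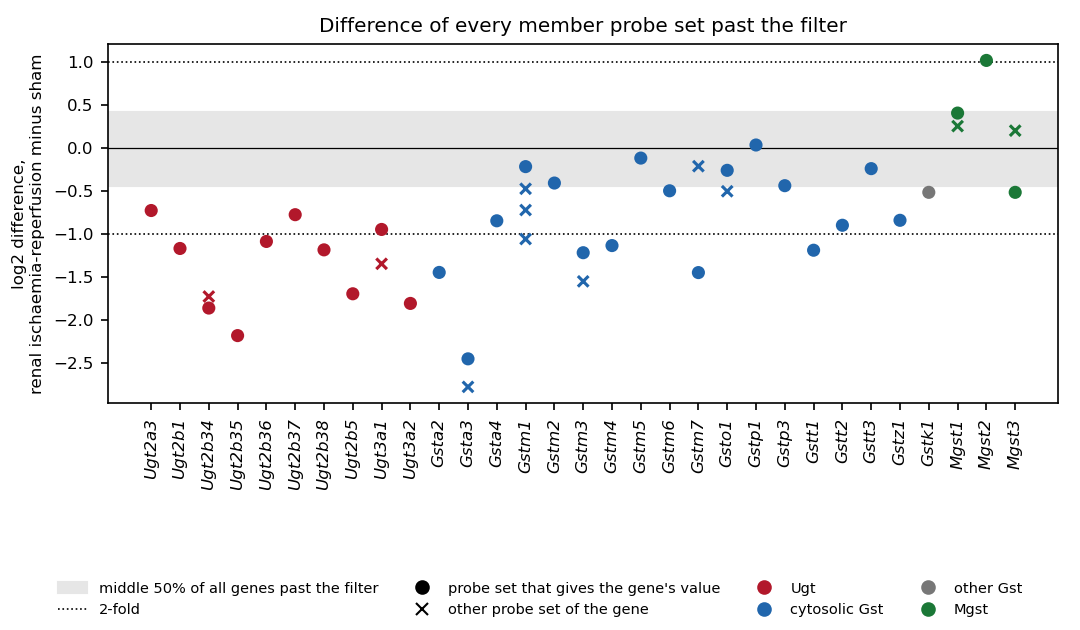
Log2 difference of the 42 member probe sets past the filter, with the probe set that gives a gene's value as a point, other probe sets of the gene as crosses, the 2-fold lines dotted and the middle 50% of all genes (-0.45 to 0.42) shaded. The 12 Ugt probe sets lie below the shaded band, the cytosolic Gst probe sets spread from -2.78 to 0.03, and the 4 Gstm1 probe sets range from -1.06 to -0.22.

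Probe sets of the same member gene disagreed less than those of genes at large. For 9 member genes with several probe sets past the filter, the SD within a gene was 0.39 on the log2 scale. Over 5028 genes it was 0.72, and the comparison was not matched for signal level. In 8 of these 9 genes the probe sets had the same sign, Mgst3 being the exception. Of the 13 genes at least 2-fold lower, 12 kept this call in each of 14 settings of scaling, pseudocount, filter and probe set, and Gstm7 kept it in 12. With bacterial hybridisation controls as the reference, all log2 differences shift by -0.28, and 19 of 31 members against 15.4% of all genes were then at least 2-fold lower.

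**Figure D4:**
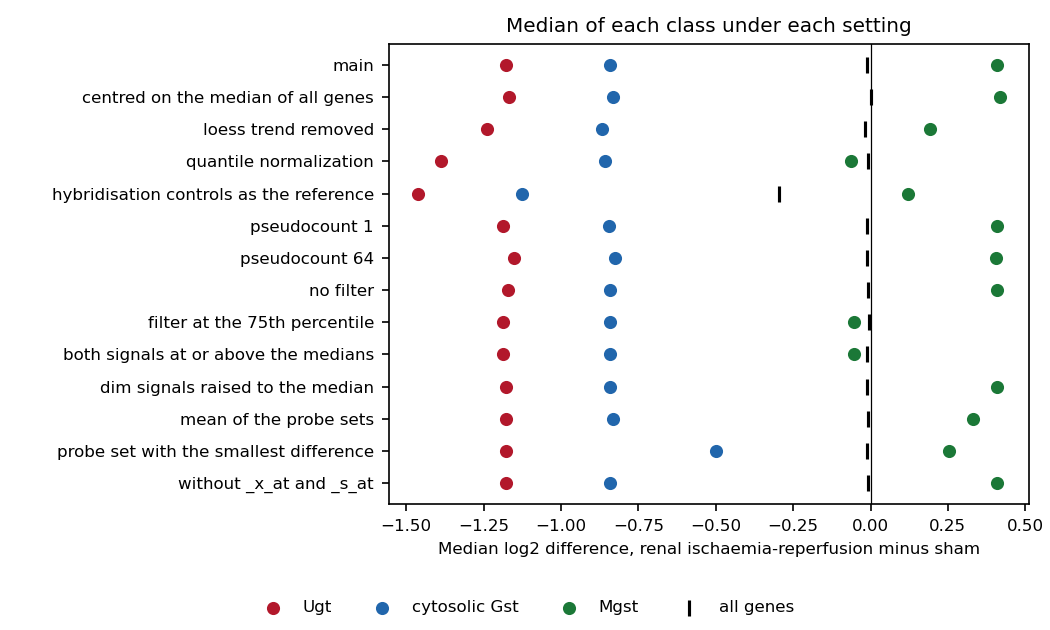
Median log2 difference of the measured Ugt, cytosolic Gst and Mgst genes (points) and of all genes (ticks) under the main setting and 13 others. The Ugt median runs from -1.46 to -1.15 and the cytosolic Gst median from -1.13 to -0.50, while the Mgst median lies on both sides of 0, turning under it by quantile normalization and with the 2 stricter filters.

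The promoters of some Gst and Mgst genes hold the core of the antioxidant response element, through which NRF2 acts. TGACNNNGC was searched on both strands and occurred in 12.4% of all windows and in 13.99% of all genes with a window. It was in 4 of the 32 member genes with a window, Gsta3, Gstm5, Gstm7 and Mgst1. All 4 were among the 28 measured members with a window. Whether the share of members differs from that of all genes was not tested. The stretches are shown because genes with this core differed widely, with the core in capitals (for Mgst1 on the opposite strand).
Gsta3: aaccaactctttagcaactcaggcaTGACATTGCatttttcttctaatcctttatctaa
Gstm5: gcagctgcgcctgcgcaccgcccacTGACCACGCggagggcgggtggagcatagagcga
Gstm7: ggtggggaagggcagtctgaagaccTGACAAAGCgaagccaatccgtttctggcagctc
Mgst1: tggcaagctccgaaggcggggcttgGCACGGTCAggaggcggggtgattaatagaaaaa
They lie at chr1:21240439-21240497 (plus strand), chr3:107895787-107895845 (plus), chr3:107931710-107931768 (minus) and chr6:138140446-138140504 (plus) of GRCm38.p6. Counted from the start of transcription, the first base of the core is at -121, -42, -129 and -56. The log2 differences of these 4 genes were -2.46, -0.12, -1.45 and 0.41, with 2 of them past 2-fold and Mgst1 above 0.

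The AP-1 element TGAGTCA, searched the same way, occurred in 5.20% of all windows and in 5.95% of all genes with a window. Among the 32 member genes with a window it was in 4, Gstp1, Gstm5, Mgst2 and Ugt2b37. The Gstp1 match is shown because this element of the pi class promoter is well known and the gene had the smallest difference.
Gstp1: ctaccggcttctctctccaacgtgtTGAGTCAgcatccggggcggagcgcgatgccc
It lies at chr19:4037955-4038011 on the minus strand, with the first base of the element at -74. TTGCNNAA, a core of C/EBP sites, occurred in 10.8% of all windows, in 12.2% of all genes with a window and in 9 of the 32 member genes. These were Ugt2b1, Ugt2b5, Ugt2b36, Gsta3 and Gstt1, all at least 2-fold lower, and Ugt2a3, Gstm2, Gstp3 and Mgst1, all short of 2-fold. No match of the 5 motifs overlapped another in the member windows.

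The genes that supply UDP-glucuronic acid were partly lower. Of 16 measured genes of supply and breakdown, 4 passed 2-fold downward and 2 upward, with a median of -0.43. For this list and those below, the shares over all genes past the filter were 9.59% downward and 8.71% upward. Ugdh, which makes UDP-glucuronic acid, went from 6565 to 1786 (-1.87), and Ugp2, which makes its precursor UDP-glucose, from 11314 to 3475 (-1.70) with 5 of 5 probe sets lower. Gulo, which carries out the last step of vitamin C synthesis, stood at -1.37. Pgm2 (1.23), Cmpk1 (1.02) and Slc35b1 (0.90) were the highest.

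Glutathione supply and recycling went both ways, with 5 of 21 measured genes past 2-fold downward and 5 upward (median 0.14). Of the 19 that reached the median of each array, 4 passed it downward and 4 upward. Chac2, which degrades glutathione, was lowest (1072 and 20.0, at least 4.03-fold lower). Me1 (-1.36, its 2 probe sets differing in sign) and Idh1 (-1.33), which supply NADPH, came next. Glrx, a glutaredoxin, went from 1238.4 to 8568 (2.77), Gpx3, a secreted glutathione peroxidase, was at least 5.90-fold higher, and Gsr, which reduces oxidised glutathione, went from 1753 to 4779 (1.44).

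Genes of the NRF2 pathway were spread around 0, with 5 of 22 past 2-fold downward, 2 upward and a median of -0.02. Besides Ugdh, the lowest were Gclm (-1.31), a subunit of the enzyme that begins glutathione synthesis, and Abcc2 (-1.20), the canalicular pump for conjugates. Srxn1 (1.47), Gsr and Mafk (0.92) were the highest. NRF2 itself (Nfe2l2) went from 1845 to 911.4 (2.01-fold lower), while its second probe set was higher.

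Other conjugation enzymes had 8 of 21 genes past 2-fold downward and 3 upward, with a median of -0.62. Of the 20 that reached the median of each array, 8 passed it downward and 2 upward. The sulphotransferase Sult2a8 (-2.46), the histamine methyltransferase Hnmt (-2.07) and the glycine conjugating Glyat (-1.85) were lowest. The oestrogen sulphotransferase Sult1e1 was at least 18.5-fold higher, the nicotinamide methyltransferase Nnmt stood at 2.71 and Papss1, which makes the sulphate donor, at 1.46.

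Of 11 efflux pumps for conjugates and bile constituents, 4 passed 2-fold downward and none upward (median -0.90). The lowest were Abcb11 (-2.95), Abcc6 (-2.27) and Abcb4 (-1.37). Abcb1a (at least 1.13-fold higher), Abcc1 (0.38, its 2 probe sets differing in sign) and Abcc5 (0.17, 1 of 4 probe sets lower) were the highest.

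Regulators of conjugation genes had 8 of 23 genes past 2-fold downward and none upward (median -0.61). Of the 22 that reached the median of each array, 7 passed it downward. Bcl6, a repressor linked to sex-biased liver genes, was at least 2.97-fold lower. Nr1i3, which encodes CAR, went from 2263 to 732.9 (-1.61), and Nr1h4, the bile acid receptor FXR, from 1816 to 592.4 (-1.59). Cebpb (0.51), Onecut1 (0.40) and Ppargc1a (0.31, 2 of 3 probe sets lower) were the highest. Of the other regulators named at the start, Nr1i2, which encodes PXR, stood at -0.64. Hnf4a stood at -0.06, with 2 of its 4 probe sets lower.

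In the MAPEG family beside the Mgst genes, Ltc4s, the leukotriene C4 synthase of leukocytes, went from 912.5 to 282.3 (-1.64), Ptges stood at 0.08 with probe sets of both signs, and Alox5ap at 0.46. Of 6 measured genes of leukotriene and prostaglandin synthesis, 1 passed 2-fold downward and none was shown to pass it upward (median -0.24). Alox5 (-1.37), Ptgds (-0.53) and Ptgs2 (-0.47) were lowest. Tbxas1 (at least 1.47-fold higher) and Ptges2 (at least 1.58-fold higher) were dim in the sham pool, and Lta4h stood at -0.02.

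**Figure D5:**
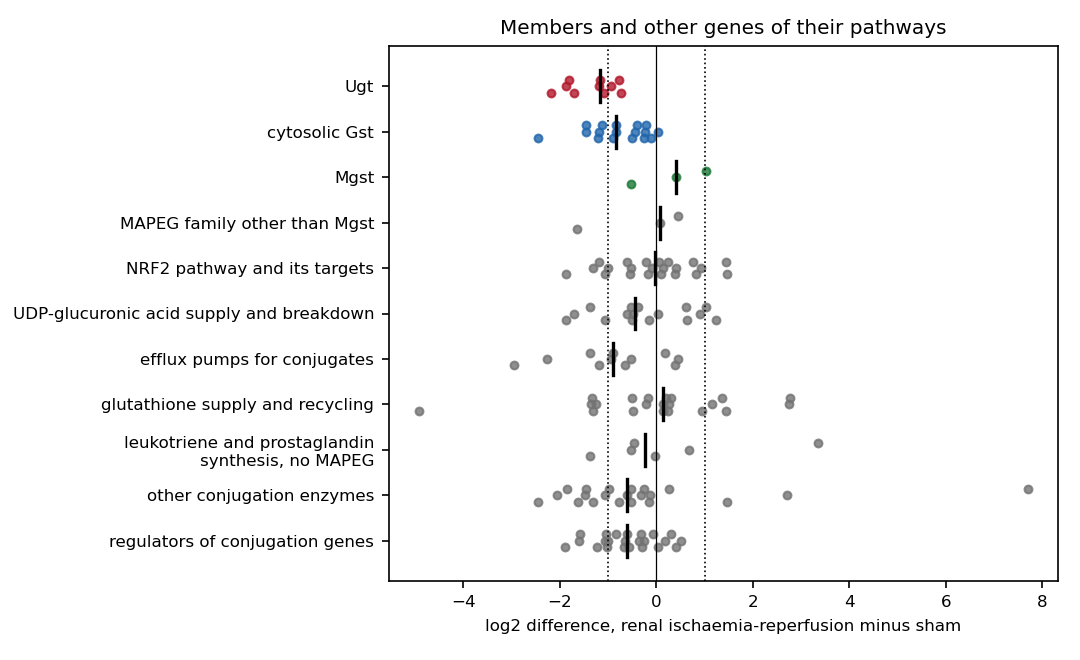
Log2 difference of each measured gene of the member classes (coloured) and of the other lists (grey), with medians as black bars and the 2-fold lines dotted. The Ugt points all lie left of 0 (-2.19 to -0.73), as do the cytosolic Gst points but for Gstp1 (0.03). The list of glutathione supply extends from -4.92, at Chac2, to 2.77. Chac2 was under the array median in the renal ischaemia-reperfusion pool, so only its bound (at least 4.03-fold lower) holds.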

How the data were processed

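Liver RNA of 2 pools was measured on 1 Affymetrix array each, from 6 ug of total RNA made into biotin-labelled cRNA, per the labels' protocols. The deposited values are a linear intensity per probe set. Trimming 2% from each tail gave a mean of 500.0 for either array, so a common scaling came before deposit. Which software and background step made them is not stated by the labels or headers. Of 45037 probe sets that are not controls, 34945 had 1 gene in the platform annotation, 932 several and 9160 none. Symbols were updated by Entrez ID for 34741, and the annotation can be old.

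Signals were taken as log2 (signal + 16). Where several probe sets of a gene passed the filter, the one brightest on average gave its value. Genes at or above 2-fold were counted, with no test. A gene dimmer than the median of 1 array has a bound, its bright signal over that median. Probe sets ending in _x_at or _s_at can cross-hybridise and gave the values of 3 member genes. Every member gene was named, and of each pathway list the 3 highest and 3 lowest (fewer in short lists). Nfe2l2, Nr1i2, Hnf4a and the cell type markers printed by name were chosen after their values were seen. Members and lists were chosen with earlier results of these data known. The number of arrays limits the precision. The steps were run on simulated data with known differences and little noise, which checks the code and not the spread between mice. Python 3.11.15, pandas 2.3.3 and statsmodels 0.14.6 were used. Alternatives covered centring, loess (span 0.3), quantile normalization, hybridisation controls as the reference, pseudocounts of 1 and 64, 4 treatments of dim signals, 3 choices of probe set, and thresholds of 1.5-fold and 3-fold.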

Additional observations from a re-analysis of the deposited data

How the results depend on the processing

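The counts of members, Ugt genes and cytosolic Gst genes at least 2-fold lower stayed within 1.5 times the main count in the 13 settings at the 2-fold threshold and at 1.5-fold. At 3-fold they were 5, 4 and 1, since a higher threshold passes fewer genes. The single member at least 2-fold higher, Mgst2, was lost (0 genes) with hybridisation controls as the reference, a pseudocount of 64, both stricter filters, dim signals raised to the median and the 3-fold threshold, and 2 genes were counted with no filter. The Ugt median moved to -1.46 and the cytosolic Gst median to -1.13 with hybridisation controls as the reference, which shifts every gene alike. Taking each gene's least different probe set gave a cytosolic Gst median of -0.50. The Mgst median reversed to -0.063 by quantile normalization (the cause was not tested) and to -0.055 under both stricter filters, which drop Mgst2. Moved means by more than the SD of 0.72 between probe sets of a gene divided by the root of the number of genes. Among single-gene values under alternatives, 398 stayed within that SD and 1, Gstm7 at -0.21, did not. No paired analysis was possible because each group is 1 pool on 1 array. Without replicates, leaving out a sample was not possible.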
